A study of Mus musculus with 38 samples.

Results

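This account covers 34 interferon-stimulated genes in the whole bone marrow of mice with leukaemia started by an MLL fusion oncogene. The genes were taken by name as known interferon targets, with Rsad2 described apart from the other 33, and their probe sets were those annotated to exactly 1 of these symbols. Such probe sets were found for 32 of the 34 genes, 48 probe sets among the 45101 on the array. Isg15 had only a probe set shared with another symbol, and Ifi44 had none, so expression is not given for these 2 genes. Mx2 exceeded the array median on 0 of 38 arrays, with log2 values of 5.82 to 6.62 in the leukaemias and 5.94 to 6.60 in the normal samples, and was left out by the filter on dim probe sets. The remaining 31 genes were among the 13333 tested, and 0 of these passed the filter through the normal samples alone.

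RNA was measured on 1 Affymetrix oligonucleotide array for each of 38 mice. The 34 leukaemic mice had received C57BL/6 marrow progenitors positive for c-kit and infected with a retrovirus carrying MLL-AF1p (9 mice), MLL-AF10 (8), MLL-GAS7 (5), MLL-AF9 (5) or MLL-ENL (7). In each oncogene the amino-terminal part of MLL, a chromatin regulator, is joined to the partner named. The recipients were lethally irradiated syngeneic male or female mice, and their marrow was collected at euthanasia. The 4 normal samples came from wild-type C57BL/6 marrow of either sex, and the labels mention no irradiation, transplant or virus for them. Ages and times after transplant are not given in the sources used here. All samples are whole marrow, so a leukaemic sample can also hold other marrow cells, and fewer cells that carry a transcript and less of it in each cell cannot be told apart.

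Interferons are secreted proteins that warn cells of infection. Type I interferons such as interferon beta act through the receptor chains IFNAR1 and IFNAR2, and their signal reaches target genes at the interferon-stimulated response element (ISRE), whereas interferon gamma acts through IFNGR1 and IFNGR2 and reaches its targets at the gamma-activated site (GAS). The induced genes encode proteins that block viral replication, sense foreign nucleic acid or restrain the response. In marrow, interferon is known to affect blood stem cells and myeloid precursors.

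The arrays fell into 2 sets that no label explains, told apart by 6 probe sets. The first set held 16 leukaemias, spread over the 5 cohorts, and the second held the other 18 leukaemias and all 4 normal samples. For the genes called in all leukaemias against normal marrow, values are therefore also given within the second set. The mice MLL-AF1p_809 and MLL-AF10_797A stood above the rest of their cohorts in most of the 31 genes. Calls of all leukaemias against normal that change without these mice are given with both values. For comparisons among the cohorts only the changed counts are given. Array medians ran from 129.2 to 208.3 intensity units before they were brought to 1 value. Erythroid markers summed to 2458 to 5212 intensity units in the leukaemias, against 128320 to 183067 in normal marrow. B cell markers summed to 1908 to 9036 in the leukaemias and 17391 to 35259 in normal marrow. For monocyte markers the sums were 57895 to 158879 in the leukaemias and 25439 to 44862 in normal marrow. Plasmacytoid dendritic cells are a main source of type I interferon, and their 7 measured markers, of 12 listed, summed to 1653 to 8686 in the leukaemias and 6524 to 11229 in normal marrow. Late neutrophil marker sums were 57602 to 653778 in the leukaemias and 295633 to 488304 in normal marrow. Resident macrophage markers summed to 4783 to 15017 in the leukaemias and 14715 to 34102 in normal marrow, and T and NK cell markers to 1106 to 5811 in the leukaemias and 5845 to 7650 in normal marrow. All 13 erythroid and all 13 B cell markers tested were called lower in leukaemia, as were 11 of 14 resident macrophage, 10 of 15 late neutrophil, 9 of 11 T and NK cell and 4 of 7 plasmacytoid dendritic markers, while 9 of 12 monocyte markers were called higher. Some of the erythroid, B cell and T and NK cell markers passed the filter only through the normal samples, where they were high. The plasmacytoid dendritic marker Pacsin1 and the resident macrophage marker Spic also needed the normal samples to pass. No marker was at 0.

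Rsad2 encodes viperin, an enzyme that turns a cytidine nucleotide into a chain terminator of viral RNA synthesis. It was low in every leukaemia and high in every normal marrow. The deposited intensities lay between 150.1 and 1301.2 in the leukaemias, against 14430.4, 16081.2, 7970.1 and 12520 in normal samples 1 to 4. On the log2(intensity + 46.1) scale used from here on, its lowest, median and highest values in the leukaemias were 7.59, 8.28 and 10.35, whereas the normal samples had 13.72, 13.95, 12.82 and 13.43. A gap of 2.47 separated the highest leukaemia, MLL-AF10_797A, from the lowest normal sample. Rsad2 was lower by 33.7-fold in leukaemia (log2 difference -5.07 ± 0.30, SE, adjusted p = 7.7e-17 by limma), which was the twenty-first place among falls of all genes. Its other probe sets gave 26.8-fold and 34.3-fold lower signals. Within the second array set the log2 difference was -5.00 ± 0.38.

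By cohort, Rsad2 had a lowest, median and highest log2 value of 7.98, 8.59 and 8.67 in MLL-ENL, 7.80, 8.17 and 10.35 in MLL-AF10, and 8.00, 8.19 and 9.89 in MLL-AF1p. The MLL-GAS7 mice had 8.27, 8.35, 8.46, 8.84 and 9.58. The MLL-AF9 mice had 7.59, 7.61, 7.68, 8.25 and 8.32. In order of the means, MLL-GAS7 had 8.70 ± 0.54 (SD, n = 5), MLL-AF1p 8.54 ± 0.60 (n = 9), MLL-AF10 8.48 ± 0.86 (n = 8), MLL-ENL 8.42 ± 0.28 (n = 7) and MLL-AF9 7.89 ± 0.36 (n = 5), and normal marrow stood at 13.48 ± 0.49 (n = 4). Each neighbouring pair of cohorts overlapped, and the F test among the 5 cohorts did not pass (adjusted p = 0.424). Against the same 4 normal samples Rsad2 was 48.1-fold lower in MLL-AF9, 33.4-fold in MLL-ENL, 31.9-fold in MLL-AF10, 30.7-fold in MLL-AF1p and 27.4-fold in MLL-GAS7.

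Isg20, an exonuclease that degrades single-stranded RNA, was the only other gene of the 31 with a fall of at least 16-fold. Its intensity ran from 85.6 to 577 in the leukaemias, against 10814.1, 8527.5, 6205 and 11785.6 in normal samples 1 to 4. The lowest, median and highest log2 values in the leukaemias were 7.20, 8.13 and 9.30, and the normal samples had 13.31, 13.04, 12.46 and 13.34. The groups were 3.16 apart at their nearest samples. Isg20 was lower by 28.8-fold (log2 difference -4.85 ± 0.24, SE, adjusted p = 1.15e-18), and within the second array set the log2 difference was -4.73 ± 0.27. The 5 cohorts lay within 8.06 to 8.35 in their means and did not pass the F test (adjusted p = 0.916). Falls of at least 16-fold that passed the test were seen in 0.360% of all genes, 48 in number. Among these were 10 of the 13 erythroid, 3 of the 13 B cell, 1 of 7 plasmacytoid dendritic and 1 of 14 resident macrophage markers. Of the erythroid and B cell markers, Alas2, Hemgn, Epb42, Ebf1 and Rag1 exceeded the array median in 0 of 34 leukaemias. Rhag, Car1 and Vpreb1 did so in 1 leukaemia each, short of the 4 arrays required. These markers thus passed the filter only because of normal marrow, which limits these counts. Most of the erythroid, B cell, plasmacytoid dendritic, resident macrophage, T and NK cell and late neutrophil markers tested were also called lower. Their part in the differences of Rsad2 and Isg20 was not tested.

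Rsad2 lies on chromosome 12 at 26442743 to 26456452, on the minus strand, and Isg20 on chromosome 7 at 78913396 to 78920396, on the plus strand (GRCm38.p6). Upstream windows of RefSeq (250 bases before to 50 bases after a transcript start, GRCm38.p6) were found for 25 of the 34 genes. They were searched on both strands for the ISRE core (GAAA, any 2 bases, GAAA) and for the GAS letters TTCNNNGAA, which read the same on either strand. The ISRE core was in 17 of the 25 genes (68%), against 3.99% of the 27025 genes in the table. GAS letters were in 8 of the 25 (32%), against 9.55% of all genes, and in Bst2 and Ifitm3 a match of each kind overlapped. The windows of Rsad2 and Isg20 are shown whole because these genes fell most, with the matched letters in capitals. Rsad2 has an ISRE core on the opposite strand, starting at -120 from the transcript start (chr12:26456403-26456702, minus strand), and Isg20 has GAS letters at -73 and no ISRE core in any of its 3 windows (chr7:78913174-78913473, plus strand).
Rsad2: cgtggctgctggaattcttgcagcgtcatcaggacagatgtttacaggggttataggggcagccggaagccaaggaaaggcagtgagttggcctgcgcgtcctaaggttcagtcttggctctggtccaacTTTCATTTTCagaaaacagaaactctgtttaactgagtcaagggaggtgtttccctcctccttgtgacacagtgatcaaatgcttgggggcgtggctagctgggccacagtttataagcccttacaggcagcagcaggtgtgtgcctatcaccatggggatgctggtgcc
Isg20: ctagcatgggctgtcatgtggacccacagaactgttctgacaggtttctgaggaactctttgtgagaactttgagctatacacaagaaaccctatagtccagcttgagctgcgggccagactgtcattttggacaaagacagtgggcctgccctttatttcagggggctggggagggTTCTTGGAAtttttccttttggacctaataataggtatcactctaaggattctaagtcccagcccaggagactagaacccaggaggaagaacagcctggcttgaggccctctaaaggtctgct
Stretches of 60 bases around the ISRE core are shown for 2 further genes that fell, Oas3 and Igtp, for 2 that rose, Gbp3 and Oas1a, and for 2 of those most like Rsad2 from mouse to mouse, Ifit1 and Ifit3. Oas3 is at chr5:120777700-120777759 (minus strand), Igtp at chr11:58199497-58199556, Gbp3 at chr3:142559977-142560036, Oas1a at chr5:120907508-120907567 (minus strand), Ifit1 at chr19:34640769-34640828 and Ifit3 at chr19:34583365-34583424.
Oas3: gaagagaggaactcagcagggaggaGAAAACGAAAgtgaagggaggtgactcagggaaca
Igtp: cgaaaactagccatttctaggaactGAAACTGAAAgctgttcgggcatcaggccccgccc
Gbp3: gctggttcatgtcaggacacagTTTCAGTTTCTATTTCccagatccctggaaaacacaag
Oas1a: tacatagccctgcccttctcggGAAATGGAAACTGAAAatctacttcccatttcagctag
Ifit1: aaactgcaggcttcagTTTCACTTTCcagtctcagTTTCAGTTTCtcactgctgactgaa
Ifit3: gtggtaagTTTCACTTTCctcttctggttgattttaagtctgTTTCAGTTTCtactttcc
Genes that were lower and genes that were higher in leukaemia both hold the core in these windows. A match of letters does not show that a factor binds there.

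The comparison of all leukaemias with normal marrow asked which of the 31 genes the 5 cohorts shifted together. Of these, 3 rose, 6 fell and 22 did not pass the test. Of all genes 41.9% passed, 29.1% higher and 12.8% lower. The median log2 difference of the 31 genes was -0.13, beside 0.16 over all genes, and without Rsad2 it was -0.11. The remaining 29 genes besides Rsad2 and Isg20 lay between -1.77 and 0.95, so the fall of these 2 genes was far larger than that of any other. All 34 leukaemias lay below all 4 normal samples for Rsad2, Isg20 and Igtp, and in 4.08% of all genes. No gene of the 31 had all leukaemias above all normal samples, as 4.85% of all genes did. Within the second array set the counts were also 3 higher and 6 lower, in the same genes, beside 45.7% of all genes called. The log2 differences there were -1.50 for Oas3, -1.23 for Igtp, -0.75 for Iigp1 and -0.74 for Gbp2. They were 0.76 for Gbp3, 0.79 for Oas1a and 0.57 for Eif2ak2.

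**Figure D1:**
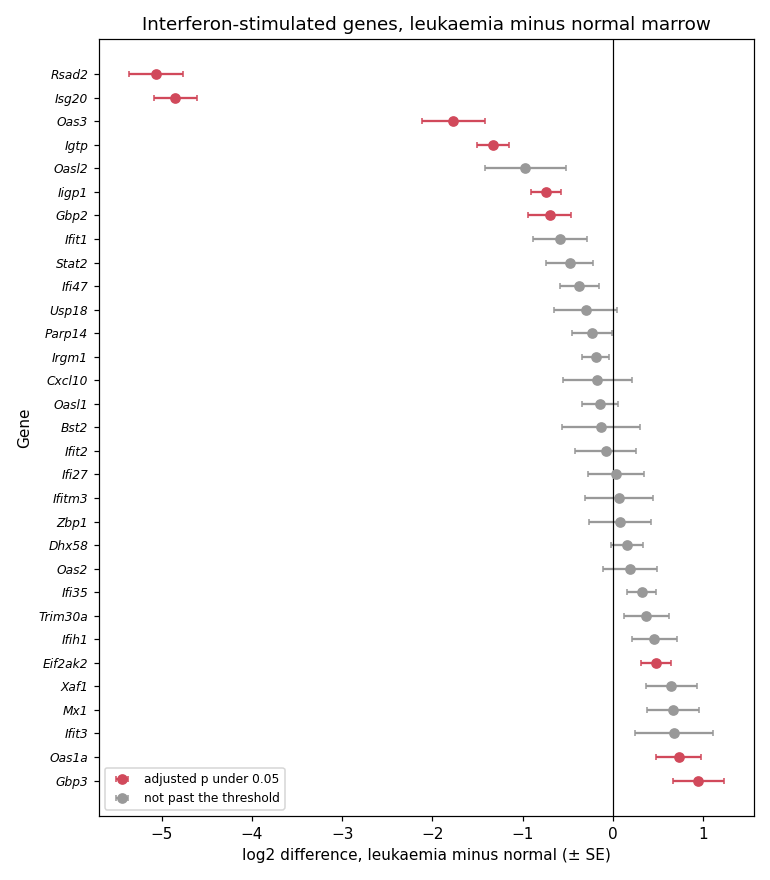
Log2 difference of leukaemia minus normal marrow for the 31 genes tested, with SE from limma (34 leukaemias, 4 normal samples). Rsad2 and Isg20 lie near -5, and the other 29 lie between -1.77 and 0.95. Red points passed an adjusted p under 0.05.

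Oligoadenylate synthetases sense double-stranded RNA and make the messenger that activates RNase L. They went in different directions. Oas3 had a lowest, median and highest log2 value of 6.93, 8.54 and 10.39 in the leukaemias, whereas the normal samples had 9.92, 10.73, 10.42 and 9.84. In 32 of the 34 leukaemias it lay below every normal sample, and MLL-AF10_797A and MLL-AF1p_809 were the exceptions. It fell 3.40-fold (log2 difference -1.77 ± 0.35, SE, adjusted p = 9.5e-05).

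Oas1a showed the opposite sign, with 9.41, 10.76 and 11.95 as lowest, median and highest value in the leukaemias, against 9.64, 10.57, 10.41 and 9.27 in the normal samples. Of the leukaemias 24 lay above every normal sample. The rise was 1.66-fold (0.73 ± 0.25, adjusted p = 0.0152), and it was no longer called without normal sample 1 (0.62, adjusted p = 0.0828) or 4 (0.50, adjusted p = 0.161). Oas2 (0.19 ± 0.30), Oasl1 (-0.14 ± 0.20) and Oasl2 (-0.97 ± 0.45, adjusted p = 0.0818) did not pass. Oasl1 and Oasl2 are related proteins, of which Oasl1 is known in mice to limit translation of Irf7.

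The IFIT proteins, which bind viral RNA and hold back its translation, did not pass in this comparison. Ifit1 had a log2 difference of -0.59 ± 0.30, Ifit2 of -0.08 ± 0.34 and Ifit3 of 0.68 ± 0.43. Their lowest and highest values were 6.57 and 9.49 in leukaemia and 7.66 and 9.02 in normal marrow for Ifit1, and 6.04 and 10.50 in leukaemia and 6.14 and 8.32 in normal marrow for Ifit3. The groups overlapped in all 3 genes. Without MLL-AF1p_809 and MLL-AF10_797A, a choice made after seeing the data, Ifit1 was called lower (-0.69, adjusted p = 0.00891) and so was Oasl2 (-1.08, adjusted p = 0.0186). Leaving out MLL-AF10_797A alone was enough for both (adjusted p = 0.0365 each), and Oasl2 was also called without normal sample 4 (0.0376) or MLL-GAS7_410 (0.0478).

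The interferon-inducible GTPases act on the vacuoles of intracellular pathogens, and interferon gamma is their main inducer. Igtp (Irgm3) had 8.73, 9.46 and 10.28 as lowest, median and highest value in the leukaemias, against 11.11, 10.63, 10.91 and 10.62 in the normal samples. The groups did not overlap, with 0.34 between their nearest samples, and Igtp fell 2.51-fold (-1.33 ± 0.18, adjusted p = 1.09e-07). Iigp1 had 7.76, 8.36 and 9.38 in the leukaemias and 9.21, 9.47, 8.85 and 8.80 in the normal samples, with 32 leukaemias below every normal sample. Its fall was 1.67-fold (-0.74 ± 0.17, adjusted p = 0.000641). Irgm1 (-0.19 ± 0.15) and Ifi47 (-0.37 ± 0.22) did not pass. Ifi47 was called lower when arrays were not shifted (-0.50, adjusted p = 0.0444) and under quantile normalization (-0.52, adjusted p = 0.0327).

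The guanylate-binding proteins of the same class split. Gbp2 had 5.81, 7.71 and 8.62 as lowest, median and highest value in the leukaemias and 8.37, 8.44, 8.27 and 8.18 in the normal samples, and fell 1.63-fold (-0.70 ± 0.24, adjusted p = 0.0174). Gbp3 had 7.64, 9.28 and 10.46 in the leukaemias and 8.03, 8.40, 8.78 and 8.26 in the normal samples, and rose 1.93-fold (0.95 ± 0.28, adjusted p = 0.00551). The 2 genes lie near each other on chromosome 3 and both have an ISRE core. The Gbp2 call was lost without normal sample 1 (adjusted p = 0.0524) or 2 (0.0579). The second Gbp2 probe set gave -0.72 and did not pass among all probe sets (adjusted p = 0.0769 by limma).

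Eif2ak2 (PKR), a kinase that stops translation on contact with double-stranded RNA, had 7.69, 8.38 and 8.99 as lowest, median and highest value in the leukaemias and 8.08, 8.08, 7.74 and 7.52 in the normal samples. The rise of 1.40-fold (0.48 ± 0.17, adjusted p = 0.024) came from its brightest probe set, while its other probe sets gave -0.41 and -0.58. The mean of the 3 probe sets was -0.17 (adjusted p = 0.503), so the direction depends on the probe set. The call was also lost without normal sample 3 (adjusted p = 0.0821) or 4 (0.149), without the 5 arrays that had the brightest hybridisation controls (0.0912) and with the values as deposited (0.0884). Xaf1, a pro-apoptotic zinc finger protein, also had probe sets of opposite sign, 0.65 and -0.46. So did Ifi35 (0.32 and 0.56 against -0.29), Trim30a (0.37 against -0.07), Dhx58 (0.16 against -0.11) and Ifi27 (0.04 against -0.21).

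**Figure D2:**
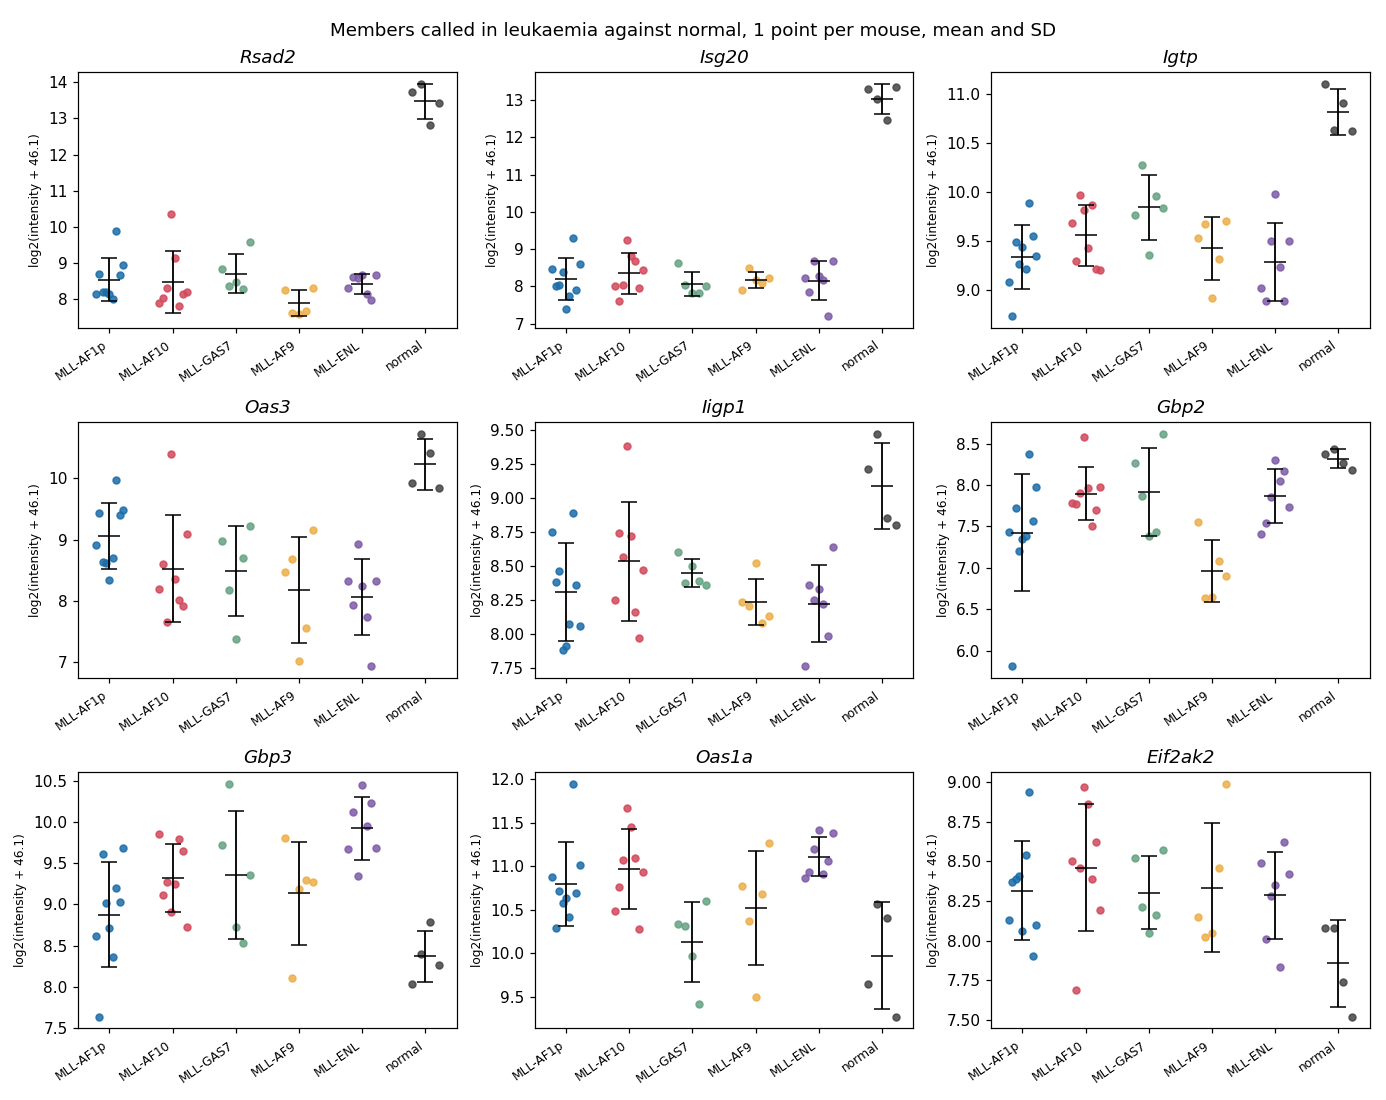
Log2(intensity + 46.1) of the 9 genes called in leukaemia against normal, 1 point per mouse, with the mean and SD of each group as a bar and whiskers. The 5 cohorts are left of normal marrow; the axes do not start at 0 and differ between panels. Rsad2 and Isg20 stand 2.47 and 3.16 apart from normal marrow at the nearest samples.

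The other genes did not pass. Among the sensors of viral RNA, Ifih1 (MDA5) had a log2 difference of 0.46 ± 0.25 and Dhx58 (LGP2) of 0.16 ± 0.18, and the sensor of Z-form nucleic acid Zbp1 had 0.08 ± 0.34. Stat2, the signal carrier of type I interferon, had -0.48 ± 0.26, and Usp18, the protease that removes ISG15 and damps receptor signalling, had -0.30 ± 0.35. Mx1, a GTPase that traps viral particles, had 0.67 ± 0.29 (adjusted p = 0.0608). The membrane proteins Bst2 (tetherin, -0.13 ± 0.43) and Ifitm3 (0.07 ± 0.38), the chemokine Cxcl10 (-0.17 ± 0.38), Trim30a (0.37 ± 0.25), Parp14 (-0.23 ± 0.22), Ifi27 (0.04 ± 0.31), Ifi35 (0.32 ± 0.16) and Xaf1 (0.65 ± 0.28) complete the list. Several of these lay near the threshold. Mx1 was called higher without MLL-AF1p_801, MLL-AF1p_803, MLL-AF10_783A, MLL-AF10_797A, MLL-AF10_798A or normal sample 2, without MLL-AF1p_809 and MLL-AF10_797A together (0.59, adjusted p = 0.0266), with array weights, with the array set as a term and without the 5 arrays of brightest controls, at adjusted p of 0.0266 to 0.0496. Xaf1 was called higher without MLL-GAS7_408 (0.71, adjusted p = 0.0276), without normal sample 2 (0.99, 0.0105) and without MLL-AF1p_809 and MLL-AF10_797A (0.59, 0.0482). Ifi35 was called higher without normal sample 2 (0.48, adjusted p = 0.0255) and with array weights (0.32, 0.0498), and Trim30a without normal sample 2 (0.77, 0.0185). The number of genes higher was 7 without normal sample 2.

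Each cohort was also set against the same 4 normal samples, so the 5 comparisons are not independent of each other. MLL-ENL had 4 genes higher, beside 30.3% of all genes, and 6 lower, beside 11.1%. MLL-AF10 had 3 higher (24.8% of all genes) and 5 lower (11.8%). MLL-GAS7 had 2 higher (16.7%) and 6 lower (10.4%). MLL-AF1p had 1 higher (24.2%) and 7 lower (12.3%). MLL-AF9 had 0 higher (23.7%) and 6 lower (9.86%), with 11 genes at an unadjusted p under 0.05 by limma in either direction. The share of all genes at that unadjusted p was not computed, so the 11 cannot be set beside it. Rsad2, Isg20, Oas3, Igtp and Iigp1 were called lower in each of the 5. The log2 difference of Oas3 was -2.17 in MLL-ENL, -2.05 in MLL-AF9, -1.74 in MLL-GAS7, -1.70 in MLL-AF10 and -1.17 in MLL-AF1p. For Igtp the values were -1.53, -1.39, -0.98, -1.26 and -1.49 in the same order. Isg20 kept to a narrow span, with -4.88, -4.86, -4.97, -4.69 and -4.83.

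Differences among the cohorts need no normal sample. By the F test 3 of the 31 genes passed, and 8.09% of all genes did. Without MLL-AF1p_809 and MLL-AF10_797A, a choice made after seeing the data, 7 of the 31 passed, beside 7.45% of all genes. Leaving out MLL-AF1p_809 alone also gave 7, beside 8.62%. The genes described here are those of the fit to all mice. Ifi27, a small interferon-induced mitochondrial and nuclear-envelope protein, was lowest in MLL-GAS7, where the mice had 8.60, 8.99, 9.01, 9.28 and 10.26. The lowest, median and highest values elsewhere were 10.40, 11.13 and 11.82 in MLL-ENL, 9.88, 10.74 and 11.48 in MLL-AF10 and 9.87, 10.91 and 11.58 in MLL-AF1p, and the MLL-AF9 mice had 9.01, 10.02, 10.63, 11.09 and 11.42. The MLL-GAS7 values lay below those of MLL-ENL and overlapped those of the other cohorts.

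Against the other cohorts Ifi27 was lower in MLL-GAS7 by 2.97-fold (-1.57 ± 0.28, adjusted p = 0.000791) and higher in MLL-ENL by 1.80-fold (0.85 ± 0.25, adjusted p = 0.0417), with 0.00232 for the F test. The second Ifi27 probe set did not pass the F test among all probe sets (adjusted p = 0.0754), with means of 9.59 in MLL-GAS7 and 10.88 in MLL-ENL. Irgm1, a GTPase that protects blood stem cells and macrophages in mice, had 8.16, 8.97 and 9.51 as lowest, median and highest value in MLL-AF1p. It lay at 9.15, 9.40 and 9.90 in MLL-AF10 and 9.22, 9.64 and 9.80 in MLL-ENL, and at 9.30 to 9.86 in MLL-GAS7 and 9.12 to 9.77 in MLL-AF9. It was lower in MLL-AF1p than in the others by 1.51-fold (-0.59 ± 0.11, adjusted p = 0.00233, F test 0.00639).

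Gbp2 passed the F test (adjusted p = 0.0457) and no single cohort was called for it. Its MLL-AF9 mice had 6.64, 6.65, 6.90, 7.08 and 7.55, while the other cohort means were 7.42 ± 0.71 for MLL-AF1p (SD, n = 9), 7.89 ± 0.32 for MLL-AF10 (n = 8), 7.91 ± 0.53 in MLL-GAS7 (n = 5) and 7.86 ± 0.33 in MLL-ENL (n = 7). The second Gbp2 probe set did not pass the F test among all probe sets (adjusted p = 0.489). Its lowest mean was in MLL-AF1p, 6.61, beside 6.82 in MLL-AF9. Mx1 was higher in MLL-GAS7, at 8.74, 8.94, 9.30, 9.36 and 9.66, than in the other cohorts (2.05-fold, 1.04 ± 0.26, adjusted p = 0.0177), whose medians were 7.87 for MLL-ENL, 8.12 for MLL-AF10, 8.21 for MLL-AF9 and 8.28 for MLL-AF1p. Its F test did not pass (adjusted p = 0.063). Gbp3 was higher in MLL-ENL, with a lowest, median and highest value of 9.34, 9.95 and 10.45, by 1.68-fold (0.75 ± 0.22, adjusted p = 0.0427). The calls of Gbp3 and Ifi27 in MLL-ENL were both lost under quantile normalization, with no filter, within the second array set, without the 5 arrays of brightest controls, and without any 1 of 8 mice (MLL-AF10_797A, MLL-GAS7_408, MLL-GAS7_410, MLL-AF9_305, MLL-AF9_307, MLL-ENL_741, MLL-ENL_760 and MLL-ENL_774).

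In these comparisons of 1 cohort with the others, 2 genes of the 31 were called for MLL-ENL (4.97% of all genes), 2 for MLL-GAS7 (4.78%), 1 for MLL-AF1p (2.33%), 0 for MLL-AF9 (0.368%) and 0 for MLL-AF10 (0.308%). At an unadjusted p under 0.05 the counts by limma were 0 in MLL-AF10 and 3 in MLL-AF9. Within the second array set, with 2 to 5 mice in a cohort, 0 of the 31 genes passed the F test of limma (5 at an unadjusted p under 0.05), beside 2.13% of all genes. The shares of all genes at an unadjusted p were not computed, so these unadjusted counts cannot be set beside them. The 3 genes next in order by F test were Gbp3 (adjusted p = 0.0708), Oas1a (0.0709) and Ifi35 (0.15), after Mx1, and Parp14 (0.156) came after them. Oas1a was lowest in MLL-GAS7, at 9.41, 9.97, 10.31, 10.34 and 10.60, against means of 11.11 in MLL-ENL, 10.97 in MLL-AF10, 10.80 in MLL-AF1p and 10.52 in MLL-AF9. Parp14, a mono-ADP-ribosyltransferase, had its lowest mean, 8.97 ± 0.65 (SD, n = 9), in MLL-AF1p, and Ifi35, a partner of the protein NMI, had its lowest there too, 11.12 ± 0.42 (n = 9).

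**Figure D3:**
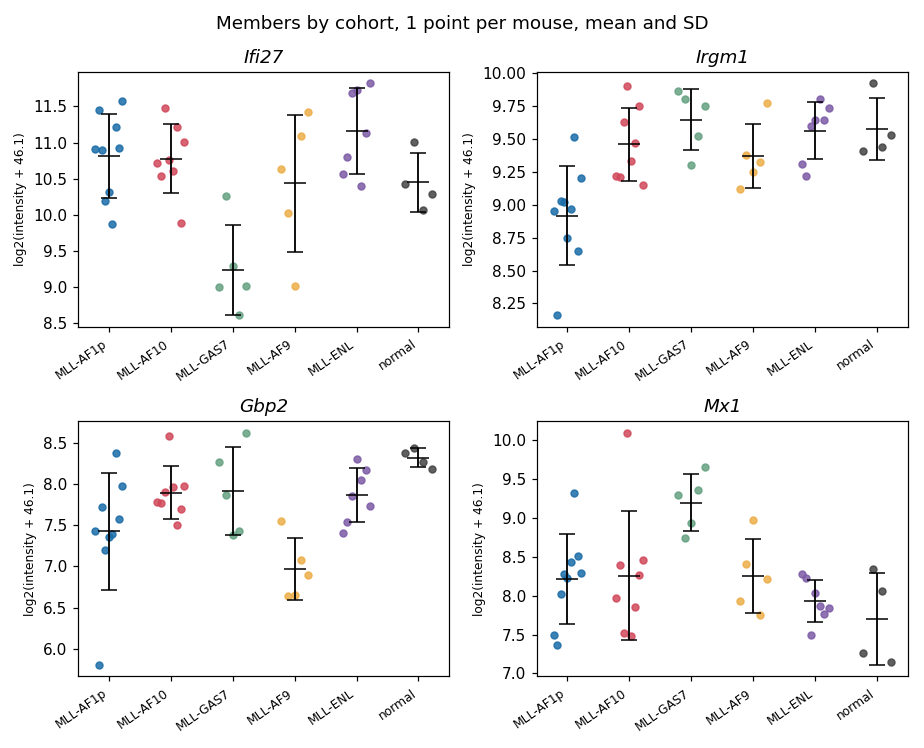
Log2(intensity + 46.1) of Ifi27, Irgm1, Gbp2 and Mx1, 1 point per mouse, with the mean and SD of each group. By the cohort means of the probe sets shown, Ifi27 is lowest and Mx1 highest in MLL-GAS7, Irgm1 is lowest in MLL-AF1p and Gbp2 in MLL-AF9. The second Gbp2 probe set, not shown, is lowest in MLL-AF1p. The axes do not start at 0.

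Within cohorts the genes varied together in a few mice. Each mouse was compared with the mean of its own group, which removes the differences between groups. In MLL-AF1p_809 all 31 genes lay above the mean of the cohort, beside 76.5% of all genes. Of the 31, 27 were the highest of its 9 mice, whereas this mouse was highest in 24.4% of all genes. In MLL-AF10_797A 29 of 31 lay above the mean, beside 40.6% of all genes. Of the 31, 27 were the highest of 8 mice, whereas MLL-AF10_797A was highest in 6.66% of all genes. At least 2-fold above the cohort mean were 16 genes in MLL-AF1p_809 (1.31% of all genes) and 15 in MLL-AF10_797A (0.758%). The median deviation of the 31 genes was 1.0 in MLL-AF1p_809 and 0.97 in MLL-AF10_797A, beside 0.23 and -0.06 over all genes in these mice.

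Usp18 reached 10.47 in MLL-AF10_797A, against 7.48 to 8.73 in the other MLL-AF10 mice, and 9.94 in MLL-AF1p_809, against 7.00 to 8.48 in the other MLL-AF1p mice. Ifit3 reached 10.50 in MLL-AF10_797A, against 6.04 to 8.89, and 9.95 in MLL-AF1p_809, against 7.05 to 8.28. Oasl2 showed the same order, with 10.16 in MLL-AF10_797A against 6.75 to 8.27 and 9.32 in MLL-AF1p_809 against 6.71 to 7.79. Rsad2 in these mice, at 10.35 and 9.89, was the highest of all leukaemias and still 2.47 or more below every normal sample. Both arrays belong to the second set, and neither was among the 5 with the brightest hybridisation controls.

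Smaller shifts of the same kind were seen in MLL-AF9_310, with 20 genes highest of 5 mice (20.4% of all genes), MLL-GAS7_410, with 19 of 31 (16.9%), and MLL-ENL_741, with 15 of 31 highest of 7 mice (24.2%). MLL-GAS7_410 was among the 5 arrays with the brightest hybridisation controls. Among normal samples, 21 of the 31 genes were highest in normal sample 2, beside 30.1% of all genes. In normal sample 4, 4 of the 31 lay above the group mean, beside 41.5% of all genes. Oas2 was 9.73 in normal sample 2 against 8.01, 9.21 and 8.17 in normal samples 1, 3 and 4, and Trim30a was 11.75 against 9.94, 10.81 and 9.80. The labels give nothing that sets these mice apart from the others of their groups.

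**Figure D4:**
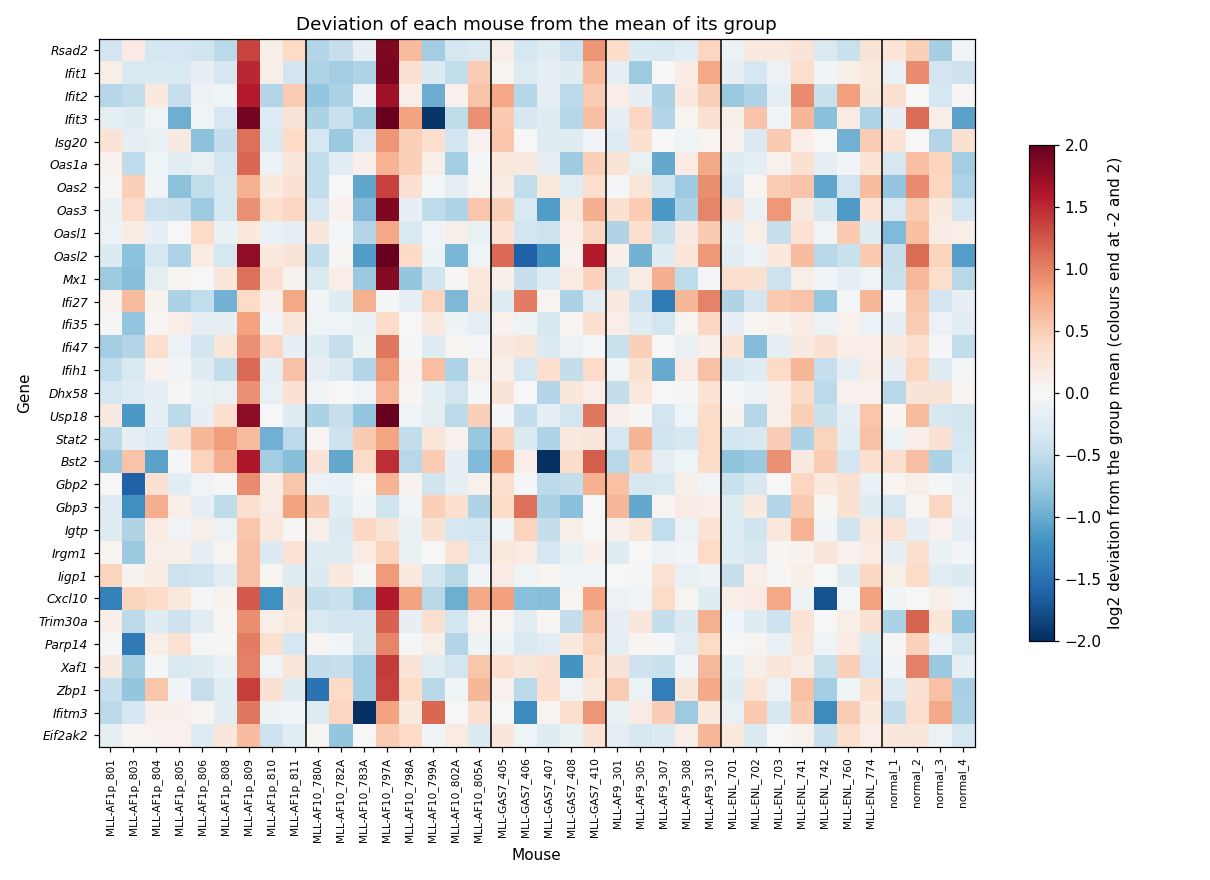
Log2 deviation of every mouse from the mean of its group for the 31 genes (rows), with vertical lines between groups and normal marrow on the right; colours end at -2 and 2. The columns of MLL-AF1p_809 and MLL-AF10_797A are red in nearly all rows, with 31 and 29 of 31 genes above the mean. Of all genes, 76.5% and 40.6% lay above the mean in these 2 mice.

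The genes whose deviations were most like those of Rsad2 over the 38 mice were Irf7 (Pearson r 0.889, Spearman rho 0.709), Ifit1 (0.792, 0.55), Ifit3 (0.759, 0.576), Usp18 (0.751, 0.525) and Oasl2 (0.727, 0.528). Irf7 is the transcription factor that amplifies type I interferon production and is not among the 34 genes. Without MLL-AF10_797A and MLL-AF1p_809, the mice farthest from the median of Rsad2, r over 36 mice was 0.742 for Irf7, 0.529 for Ifit1, 0.51 for Ifit3, 0.415 for Usp18 and 0.522 for Oasl2. Over the leukaemias alone, r in the first array set was 0.814 for Irf7 and 0.155 for Ifit1. In the leukaemias of the second set, which include MLL-AF10_797A and MLL-AF1p_809, r was 0.939 for Irf7 and 0.925 for Ifit1. Isg20, which had fallen like Rsad2, had r 0.626 with it, and Gbp3 had -0.027. These are descriptions over mice whose arrays, 1 for each mouse, were scaled alike, given with no p.

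Over all 465 pairs of the 31 genes the median r was 0.446, with 180 pairs above 0.5, beside 0.077 over all gene pairs. Without the 2 mice the medians were 0.255 for the pairs of the 31 and 0.071 for all gene pairs. The highest r of any pair was 0.873, between Ifit1 and Usp18.

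**Figure D5:**
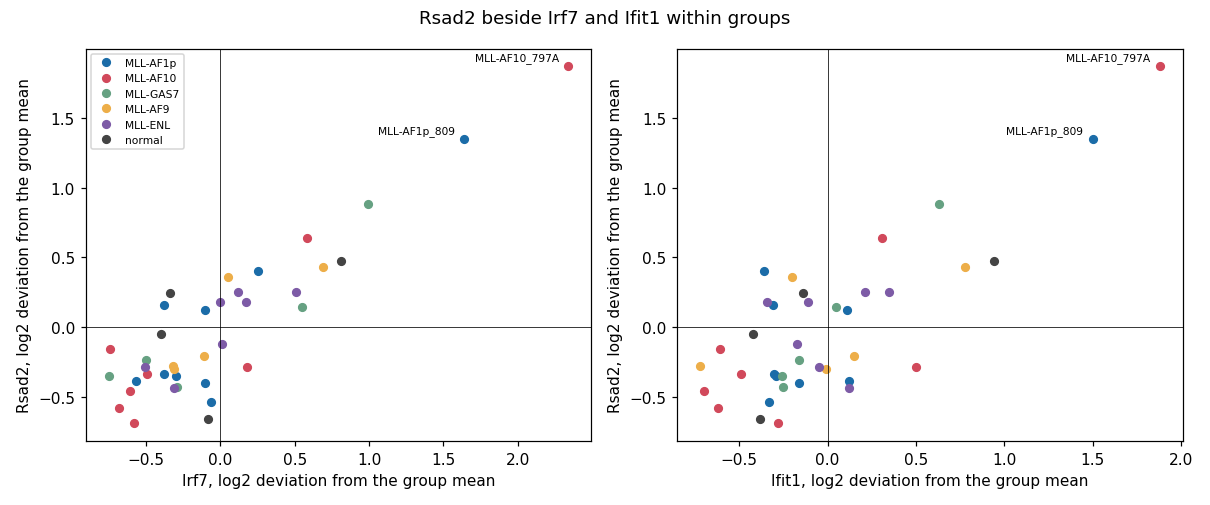
Deviation of Rsad2 from its group mean against that of Irf7 (left) and Ifit1 (right), log2 units, 1 point per mouse (n = 38), coloured by group. MLL-AF10_797A and MLL-AF1p_809 are at the upper right; r is 0.889 for Irf7 and 0.792 for Ifit1, and 0.742 and 0.529 without these mice.

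Irf7 itself had 8.64, 9.16 and 11.72 as lowest, median and highest value in the leukaemias, against 9.67, 10.82, 9.93 and 9.61 in the normal samples (log2 difference -0.68 ± 0.35, adjusted p = 0.119). Thus Irf7 was close to Rsad2 from mouse to mouse, and its difference from normal marrow was far smaller in size than that of Rsad2. Cmpk2, a mitochondrial nucleotide kinase, is the neighbour of Rsad2, with 12664 bases between them on opposite strands. It had 7.78, 8.97 and 10 as lowest, median and highest value in the leukaemias and 8.92, 11.15, 9.93 and 9.95 in the normal samples. Cmpk2 fell 2.20-fold (-1.14 ± 0.29, adjusted p = 0.00145), with 15 of 34 leukaemias below every normal sample. Its upstream window holds neither motif.

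Genes of interferon production and signalling, and other interferon-stimulated genes, were read from 4 further lists. The counts of these lists stand beside 29.1% of all genes higher, 12.8% lower and a median of 0.16. Of 19 interferon ligands 4 were tested, and Ifna1 fell (-0.91 ± 0.33, adjusted p = 0.0227) while Ifnb1 had -0.11 ± 0.22. Of 21 receptor and signalling genes 19 were tested, with 7 higher and 3 lower and a median of 0.21. The receptor chains Ifngr1 (4.55-fold, 2.19 ± 0.18, adjusted p = 1.55e-12) and Ifnar2 (2.08-fold, 1.06 ± 0.16, adjusted p = 8.18e-07) rose, as did the phosphatase Ptpn2 (1.07 ± 0.14). Ifngr1 had 12.08, 13 and 13.48 as lowest, median and highest value in the leukaemias and 10.11, 10.85, 11.17 and 10.82 in the normal samples, with all 34 leukaemias above. Ifnlr1, the receptor chain of interferon lambda, fell 2.73-fold (-1.45 ± 0.28, adjusted p = 5.41e-05).

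Of 24 sensing genes 18 were tested, with 6 higher and 1 lower and a median of 0.19. The DNA sensor Cgas rose 2.34-fold (1.23 ± 0.19, adjusted p = 2.71e-06), and Ddx58, which encodes the RNA sensor RIG-I, fell (-0.63 ± 0.24, adjusted p = 0.0356). Of 63 other interferon-stimulated genes 45 were tested, with 10 higher and 11 lower and a median of 0.07. Ube2l6, the conjugating enzyme for ISG15, had 5.63, 6.52 and 7.63 as lowest, median and highest value in the leukaemias and 10.13, 11.04, 9.89 and 11.15 in the normal samples. It exceeded the array median in 0 of 34 leukaemias and in all 4 normal samples, so it entered the test only through normal marrow, and no fold is given for it. Rsad2 exceeded the array median in 32 of the 34 leukaemias and Isg20 in 31. Ifitm1, a membrane protein that blocks viral entry, fell 8.32-fold (-3.06 ± 0.48, adjusted p = 2.32e-06), Slfn1 3.40-fold (-1.76 ± 0.41, adjusted p = 0.00069) and the chemokine Ccl5 2.89-fold (-1.53 ± 0.41, adjusted p = 0.00275).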

How the data were processed

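Whole marrow RNA of 34 leukaemic and 4 normal mice was labelled with biotin and hybridised to 1-colour Affymetrix arrays, per the labels' protocols. The authors deposited a linear intensity for each probe set on each array, and all arrays had the same trimmed mean, 500 (2% trimmed from either end). The software behind them was not given in the sources used here. Detection calls were not used, and the number of mice limits the precision. Nothing in the labels says more than that samples are separate mice.

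Intensities became log2(intensity + 46.1), 46.1 being the 25th percentile of all values, and arrays were shifted to 1 median because their medians spanned 0.537 (limit 0.5). Fold changes on this scale understate those of dim genes. Probe sets above the array median on at least 4 arrays were kept, and the brightest kept probe set stood for a gene. Symbols came from the platform annotation (34958 probe sets with 1 symbol, 932 with several), of which 34754 were matched by Entrez identifier to RefSeq and 0 changed. One model of 6 group means was fitted with limma 3.58.1 in R 4.3.3 to 13333 genes (32 residual degrees of freedom), with leukaemia as the unweighted mean of the 5 cohorts. The threshold was a 2-sided p of 0.05 after Benjamini-Hochberg adjustment over the 13333 genes, and the pipeline was tested on simulated data. The genes and lists were chosen with earlier results of these data known. Named were all 34 genes, with values by sample for those called or with the 8 smallest F test p-values, up to 4 called genes with the largest change from each list, Cmpk2, and the 5 genes most like Rsad2. The array sets were defined from the data. Alternatives were another scaling, pseudocount, filter, probe set rule and weighting, the array sets, and leaving out each mouse.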

Additional observations from a re-analysis of the deposited data

Results flagged for a closer look

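In groups of 4 to 10 mice, the highest or lowest mouse was compared with the rest by Dixon's ratio at the 95% level. Of 186 groups (31 genes in 6 groups) 26 had a mouse apart, in 18 genes, 20 at the high and 6 at the low end. Chance gives about 1 in 20 such groups, and genes that vary together are not independent groups. MLL-AF1p_809 stood apart in 9 genes (log2 values): Rsad2 9.89, Ifit1 9.20, Ifit2 10.06, Ifit3 9.95, Oas1a 11.95, Oasl2 9.32, Usp18 9.94, Trim30a 11.91 and Ifitm3 14.63. MLL-AF10_797A stood apart in 9 genes too, with Ifit1 at 9.49, Oasl2 at 10.16, Mx1 at 10.10, Ifi47 at 11.24, Dhx58 at 9.60, Usp18 at 10.47, Gbp2 at 8.58, Trim30a at 12.39 and Parp14 at 10.48. Usp18 was also high in MLL-GAS7_410 (9.45) and Ifi35 in normal sample 2 (11.55). Low values were those of Ifi47 in MLL-ENL_702 (9.54), Bst2 in MLL-GAS7_407 (6.03), Gbp2 in MLL-AF1p_803 (5.81), Cxcl10 in MLL-ENL_742 (5.84), Xaf1 in MLL-GAS7_408 (8.08) and Ifitm3 in MLL-AF10_783A (10.95). The effect against normal marrow differed between cohorts by the F test for Ifi27 (adjusted p = 0.00232), Irgm1 (0.00639) and Gbp2 (0.0457).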

How the results depend on the processing

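Rsad2 kept its call in 14 of 14 alternatives (log2 difference -5.37 to -4.90) and without each of the 38 mice in turn (-5.29 to -4.92), and Isg20 in 13 of 13 and 38 of 38; removing probe sets named _s_at, _x_at or _a_at left 23 of the 31 genes and no Isg20. Oas3, Igtp, Iigp1 and Gbp3 also kept their calls wherever they were tested. For Eif2ak2 the mean of the kept probe sets reversed the difference (-0.17). Without MLL-AF1p_809 and MLL-AF10_797A, chosen after seeing the data, the genes higher in leukaemia were 5, with Mx1 and Xaf1 added, those called in MLL-AF1p against the other cohorts 3, and those differing among cohorts 7. Of all genes 41.8% were then called in leukaemia against normal, 69% of them higher, and 7.45% passed among cohorts. The all-gene median of 0.16 became 0.04 without the shift of arrays and 0.09 under quantile normalization, and the share of calls that were higher was 69.4%, 57.0% and 60.5% in that order. Against the other cohorts, the values as deposited called 4 genes for MLL-GAS7, 1 for MLL-ENL and 1 for MLL-AF9, and 5 among cohorts, and quantile normalization called 4 in MLL-GAS7, 0 in MLL-ENL and 5 among cohorts. The share of all genes passing among cohorts rose too, from 8.09% to 11.2% as deposited and 10.8% under quantile normalization. For MLL-ENL against the others, a pseudocount of 1 gave 1, no filter 0 and the mean of the kept probe sets 1. Without the probe sets with those suffixes, MLL-AF10, MLL-GAS7 and MLL-ENL against normal called 5, 3 and 6, with fewer genes tested. MLL-GAS7 and MLL-ENL against the others called 0 each. The genes called there in the main fit, Ifi27, Mx1 and Gbp3, have only probe sets with those suffixes. They were therefore not tested in this setting, so the counts of 0 cannot show whether their calls hold. Array weights gave 5 genes higher in leukaemia, 1 in MLL-AF9 against the others and 5 among cohorts. With these weights 48.9% of all genes were called in leukaemia against normal, 71.1% of them higher, and 15.2% passed among cohorts. The second array set alone, with fewer mice, gave 5 in MLL-GAS7 and 6 in MLL-ENL against normal, 1 in MLL-GAS7 and 0 in MLL-ENL against the others, and 0 among cohorts (2.13% of all genes). Leaving out the 5 arrays whose hybridisation controls were brightest, MLL-GAS7, MLL-AF9 and MLL-ENL against the others gave 1, 1 and 0. Leaving out each mouse gave 1 to 7 genes higher and 5 to 8 lower in leukaemia, 7 to 11, 5 to 11, 6 to 9, 6 to 8 and 7 to 12 called against normal in MLL-AF1p, MLL-AF10, MLL-GAS7, MLL-AF9 and MLL-ENL, 1 to 3, 0 to 0, 1 to 3, 0 to 1 and 0 to 2 against the others in that order, and 2 to 7 among cohorts. The lowest count higher, 1, was without normal sample 4, where 33.8% of all genes were called and 68.1% of these were higher. The highest, 7, was without normal sample 2, where 37.3% were called and 72.2% of these were higher. The 7 among cohorts came without MLL-AF1p_809, where 8.62% of all genes passed. The cause of these changes was not tested where none is named. No paired analysis was possible because the groups share no replicate numbers.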
